A study of Homo sapiens with 12 samples.

Results

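The genes described here are 31 established transcriptional targets of the tumor suppressor p53, measured by RNA sequencing in DAOY cells, a human medulloblastoma line. Members were chosen by name from textbook knowledge of the pathway, with earlier results of these data known. They were kept for testing when their mean TPM (a transcript level scaled for gene length and library size) over all libraries was at least 1. In all, 30 of the 31 genes passed, among 17621 genes tested and 63677 gene identifiers in the tables. The gene excluded was SPATA18, a regulator of mitochondrial quality, which ranged from 0 to 0.18 TPM, whereas the lowest gene included was BBC3 with a mean of 1.66 TPM. TIGAR was listed under its former symbol and was matched by gene identifier, and the other 30 were matched by symbol.

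The study asked how Notch receptors shape gene expression in these cells. WT cells and knockout lines made with CRISPR/Cas9 against NOTCH1 (NOTCH1KO) or NOTCH2 (NOTCH2KO) were grown on plates carrying the Notch ligand Jagged1 or control Fc protein. On either plate they received DAPT, an inhibitor of the γ-secretase step of Notch activation, for 12 h, or the solvent DMSO. The 3 genotypes and 4 cultures gave 12 libraries, 1 for each combination, so that a genotype had 4 libraries and a culture 3. Cells of every group were DAOY cells in serum-containing medium, and each genotype was represented by a single line.

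p53 is a transcription factor that is stabilized by DNA damage and other stresses and then activates genes that stop the cell cycle, repair DNA, adjust metabolism or trigger apoptosis. Its level is kept low by the ubiquitin ligase MDM2, itself a p53 target, which forms a negative feedback loop. Many targets also have basal expression and can be activated by other factors, so that target levels need not report p53 activity. CDKN1A, the gene for the cyclin-dependent kinase inhibitor p21, has also been described as a Notch target in some cell types.

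Libraries held an estimated 18.3 to 22.4 M aligned reads, and a single read in a transcript of 1 kb corresponded to 0.0947 to 0.117 TPM. NOTCH1 was at 0.278 to 0.874 TPM in NOTCH1KO against 2.78 to 3.57 TPM in WT, and NOTCH2 was at 41.6 to 60.5 TPM in NOTCH2KO against 74.9 to 94.9 TPM in WT. Of 11 neural and medulloblastoma markers 7 had a mean TPM of at least 1, with a summed level of 42.5 to 64.7 TPM. Of 5 mesenchymal markers 5 reached that mean, with a sum of 4060 to 7630 TPM, and of 5 epithelial markers 3, with 464 to 902 TPM. A sum does not show how the level was shared among its genes. Blood markers reached at most 0.862 TPM in sum, with 3 of 4 at 0 in every library. Differences below are on the log2(TPM + 1) scale, which understates changes of low genes, with their standard error (SE). A gene was called higher or lower when the limma p-value adjusted over all 17621 genes was under 0.05. There was 1 library per combination and nothing to say that libraries came from separate experiments. These p-values therefore weigh a difference against departures from additive genotype and culture effects. They do not measure the variation between independent cultures or between clones.

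To show what the promoters of these genes hold, RefSeq promoter windows of 300 bases (250 before and 50 after a transcription start, GRCh38.p14) were searched for the p53 half-site consensus, a motif of 10 bases that occurs in pairs at p53-bound elements. The motif equals its own reverse complement, so that both strands were covered by 1 search. Windows were given for 25 of the 31 members. An exact half-site was found for 7 of these 25 genes (28%), compared with 8.06% of 27305 genes with a window, where a gene could have several windows. A pair of half-sites separated by at most 13 bases, with up to 1 mismatch in each, was found for 2 of the 25 (8%), compared with 2.28% of all genes. Members were chosen as established p53 targets, so these shares describe the list and are no result of the expression data. For a member with several windows only 1 was counted, chosen by its best pair and then by its exact half-sites. Over all genes an exact half-site in any window counted. Windows of the 5 members called in a knockout comparison that held an exact half-site are printed in the direction of transcription, with exact half-sites in capitals. They are chr11:47214724-47215023 on the plus strand, chr10:88991181-88991480 on the plus strand, chr15:88621090-88621389 on the plus strand, chr17:74872945-74873244 on the minus strand and chr15:63157428-63157727 on the minus strand.
DDB2: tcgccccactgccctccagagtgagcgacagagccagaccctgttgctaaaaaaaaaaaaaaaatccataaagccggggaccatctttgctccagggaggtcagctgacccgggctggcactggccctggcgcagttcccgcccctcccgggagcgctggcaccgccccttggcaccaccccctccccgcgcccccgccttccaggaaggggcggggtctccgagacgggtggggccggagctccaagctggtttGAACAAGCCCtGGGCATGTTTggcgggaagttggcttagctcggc
FAS: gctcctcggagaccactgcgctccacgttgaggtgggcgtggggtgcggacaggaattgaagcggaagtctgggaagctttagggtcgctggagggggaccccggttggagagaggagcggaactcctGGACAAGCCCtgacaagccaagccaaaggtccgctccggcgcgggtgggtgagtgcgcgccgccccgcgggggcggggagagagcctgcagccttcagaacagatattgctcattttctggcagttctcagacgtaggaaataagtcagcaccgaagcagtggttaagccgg
AEN: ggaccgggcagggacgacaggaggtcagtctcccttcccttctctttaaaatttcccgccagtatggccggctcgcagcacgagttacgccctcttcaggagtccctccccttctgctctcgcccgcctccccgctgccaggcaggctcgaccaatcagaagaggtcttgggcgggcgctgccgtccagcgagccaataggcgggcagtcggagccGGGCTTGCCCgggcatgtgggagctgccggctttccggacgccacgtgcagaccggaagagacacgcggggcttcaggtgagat
FDXR: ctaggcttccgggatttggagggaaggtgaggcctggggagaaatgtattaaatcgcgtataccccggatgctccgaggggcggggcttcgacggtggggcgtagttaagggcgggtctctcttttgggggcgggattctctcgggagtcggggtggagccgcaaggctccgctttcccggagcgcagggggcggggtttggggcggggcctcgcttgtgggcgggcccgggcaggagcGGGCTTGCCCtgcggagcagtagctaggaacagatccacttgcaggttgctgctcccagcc
RPS27L: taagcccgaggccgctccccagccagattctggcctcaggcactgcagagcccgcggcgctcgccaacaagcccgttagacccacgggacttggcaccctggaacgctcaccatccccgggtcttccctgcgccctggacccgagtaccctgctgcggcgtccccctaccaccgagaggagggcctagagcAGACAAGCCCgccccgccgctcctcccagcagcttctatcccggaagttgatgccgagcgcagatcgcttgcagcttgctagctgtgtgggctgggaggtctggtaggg

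DDB2 was the member with 2 exact half-sites in tandem, separated by 1 base and located 5 to 25 bases downstream of the start. A pair of exact half-sites at most 13 bases apart, anywhere in a window, was found in 10 of the 27305 genes (0.0366%). The half-site began 122 bases upstream of the start in FAS, 34 in AEN, 11 in FDXR and 59 in RPS27L. MDM2, which was called in no comparison, had the other pair, GGTCAAGTTCAGACACGTTC, with 2 mismatches in all and no intervening base, in the window chr12:68808767-68809066 from 94 to 75 bases upstream of the start. PLK2 and SESN1 held exact half-sites and were also called in no comparison of the reported fit. For CDKN1A no half-site lay in the window examined. A match describes the letters of the window only, and p53-bound elements of several of these genes are known to lie farther upstream or in introns.

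Expression of the members covered a wide range in these cells. PLK2, a polo-like kinase gene, was highest with a mean of 490.3 TPM, followed by RPS27L, PERP and CCNG1 with 146, 142 and 119.8 TPM. PMAIP1 (encoding the BH3-only protein NOXA), CDKN1A and BAX (the pore-forming apoptosis effector) had 90.0, 83.2 and 79.7 TPM. MDM2 had 19.9 TPM, and BTG2, FDXR, TP53INP1 and BBC3 were all below 5 TPM on average. PLK2 and PPM1D were the steadiest, their highest library exceeding the lowest by 1.37 and 1.39 times, whereas GADD45A varied 13-fold and GDF15 9.55-fold.

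Genotype accounted for most of the variation in part of the members. Of the total sum of squares over the 12 libraries, genotype took 94% for PHLDA3, 92.6% for PMAIP1, 91.7% for TIGAR and 88% for AEN. It took 1.81% for PPM1D, 4.93% for BBC3 and 7.26% for MDM2, so that both genes of the feedback loop around p53 were among the 3 members least separated by genotype. The median over members was 42.9%, beside 45.5% over all genes tested. Drug took 5.67% and plate 3.35% at the median, beside 3.35% and 3.39% over all genes.

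**Figure D1:**
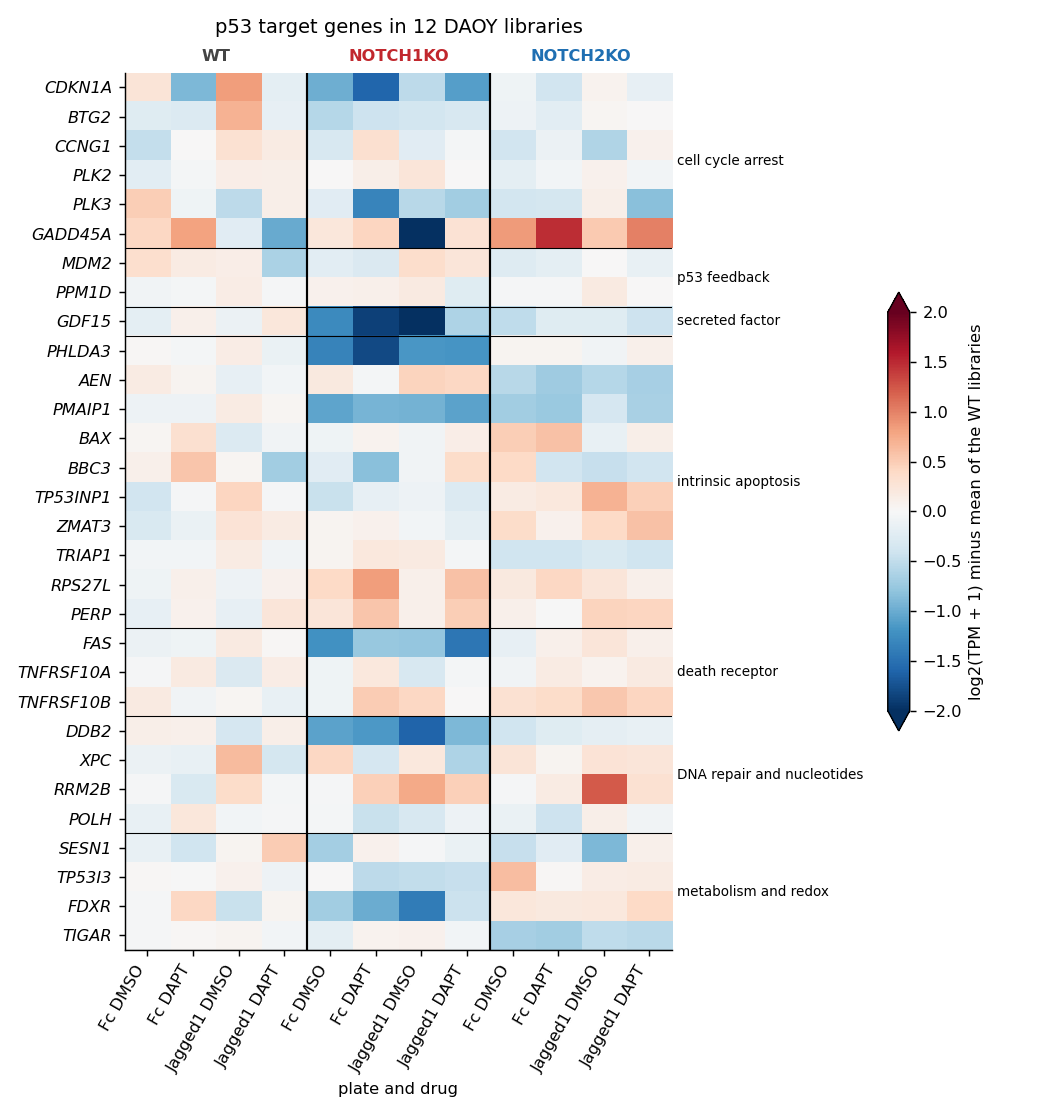
Heat map of the 30 members tested (rows, grouped by role) in the 12 libraries (columns, by genotype and culture), with color giving log2(TPM + 1) minus the mean of the 4 WT libraries. NOTCH1KO libraries are blue for GDF15, PHLDA3, PMAIP1, FAS and DDB2, and NOTCH2KO libraries are blue for AEN, PMAIP1, TRIAP1 and TIGAR.

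NOTCH1KO cells were compared with WT cells to learn which members differed when NOTCH1 was inactivated. A set of 7 genes was lower, spanning growth arrest, apoptosis, death receptor signaling, DNA repair, redox metabolism and a secreted factor. GDF15, PHLDA3, DDB2, CDKN1A, FAS, PMAIP1 and FDXR decreased by between 0.88 and 1.48 on the log2 scale. RPS27L was the single member that was higher. These 7 of 30 members (23.3%) stand beside 12.8% of all genes called lower, and the 1 of 30 called higher (3.33%) beside 10.7%. The median difference was -0.14 over the members and 0.00 over all genes.

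GDF15, the gene for a secreted TGF-β family cytokine induced by many stresses, was located at chromosome 19, 18485541 to 18499986 (GRCh37, as are all positions below). Values are given in 1 order throughout, first both Fc plates (DMSO, then DAPT) and then both Jagged1 plates (DMSO, then DAPT). GDF15 had 6.99, 8.82, 7.46 and 9.70 TPM in WT and 2.79, 1.53, 1.02 and 4.99 TPM in NOTCH1KO. Every NOTCH1KO library was below every WT library. The mean was 2.58 ± 1.77 TPM against 8.24 ± 1.25 TPM (SD, n = 4 each), a difference of -1.48 (SE 0.26, adjusted p = 0.00565).

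PHLDA3 (chromosome 1, 201434620 to 201438365) encodes an inhibitor of AKT signaling. Its levels were 18.2, 17.4, 20 and 16.3 TPM in WT, and 6.47, 4.41, 7.42 and 7.40 TPM in NOTCH1KO. The genotypes did not overlap, with a difference of -1.37 (SE 0.14, adjusted p = 0.000437). PMAIP1 (chromosome 18, 57567180 to 57571538), whose BH3-only protein NOXA neutralizes MCL1, had 117, 116, 141 and 128 TPM in WT and 59.6, 65.0, 64.5 and 58.9 TPM in NOTCH1KO. It was between 0.83 and 1.12 log2 units lower in each of the 4 cultures (difference -1.0, SE 0.08, adjusted p = 0.000153). PMAIP1 and GDF15 are also known targets of the integrated stress response. The other members were not sorted by this trait, so members of that kind that were not lower are not listed.

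FAS (chromosome 10, 90750414 to 90775542) encodes the CD95 death receptor. It was at 9.71, 9.94, 12.1 and 10.8 TPM in WT and at 4.01, 5.86, 5.78 and 3.25 TPM in NOTCH1KO, without overlap, and differed by -1.05 (SE 0.14, adjusted p = 0.00147). The receptor genes for the ligand TRAIL did not follow. TNFRSF10A had 6.22 ± 1.03 TPM in WT and 5.93 ± 1.03 TPM in NOTCH1KO (difference -0.06), and TNFRSF10B had 37.2 ± 3.88 TPM and 43.7 ± 9.11 TPM (0.21), and neither was called. ACTA2, encoded opposite to FAS, had a mean of 3.41 TPM.

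DDB2 (chromosome 11, 47236493 to 47260767), a damage recognition factor of nucleotide excision repair whose promoter holds the tandem half-sites shown above, had 25.3, 25, 18.3 and 25.5 TPM in WT. In NOTCH1KO it had 10.6, 9.98, 7.01 and 12.1 TPM, all below the lowest WT library (difference -1.18, SE 0.13, adjusted p = 0.000711). The other repair and nucleotide genes XPC, RRM2B and POLH were not called, with differences of -0.08, 0.42 and -0.22. FDXR (chromosome 17, 72858619 to 72869156), the mitochondrial ferredoxin reductase, had 4.18, 6.04, 2.90 and 4.51 TPM in WT and 2.27, 1.67, 1.01 and 2.92 TPM in NOTCH1KO. The highest NOTCH1KO library slightly exceeded the lowest WT library, and the difference was -0.88 (SE 0.18, adjusted p = 0.00992). Genes within 5 Mb of FDXR had a median difference of -0.37. FDXR was no longer called after subtraction of the neighbors' median level in each library (-0.54 on that scale, adjusted p = 0.0664).

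CDKN1A (chromosome 6, 36644305 to 36655116) had 119, 53.2, 178 and 87.0 TPM in WT and 49.9, 32.6, 68.8 and 46.1 TPM in NOTCH1KO. It was lower in NOTCH1KO in each of the 4 matched cultures, but the lowest WT library, on Fc with DAPT, lay within the NOTCH1KO range. The difference was -1.05 (SE 0.17, adjusted p = 0.00413). The call depended on the deposited unit: when coverage was used in place of TPM, the adjusted p was 0.199. The ratio of coverage to FPKM of CDKN1A varied 2.83-fold between libraries, and for 11 of the 30 members it varied by more than 1.5 times.

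RPS27L (chromosome 15, 63418071 to 63450220), a ribosomal protein paralog, was higher in NOTCH1KO, with 161, 218, 129.9 and 182 TPM against 115, 130.3, 113 and 129 TPM in WT. The ranges touched, since the NOTCH1KO library on Jagged1 with DMSO was below the WT library on Fc with DAPT. The difference of 0.48 (SE 0.11, adjusted p = 0.015) was not called without the latter library (adjusted p = 0.0536). Whether reads were shared between RPS27L and its close paralog RPS27 was not examined, and the treatment of such reads was not given. LACTB, encoded opposite to RPS27L, had a mean of 83.3 TPM.

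The other 22 members were not called, with differences from -0.70 for PLK3 to 0.42 for RRM2B. They included MDM2, with 20.9 ± 4.81 TPM in NOTCH1KO and 20.8 ± 5.73 TPM in WT (0.03, SE 0.22). PPM1D, a phosphatase gene that restrains p53 signaling, had 8.92 ± 1.21 TPM and 8.68 ± 0.684 TPM (0.03). The cell cycle regulator gene CCNG1, the sestrin gene SESN1, the polymerase gene POLH and the RNA-binding protein gene ZMAT3 were not called in any comparison. Neither was PERP, a membrane protein gene of epithelia, in the reported fit. Mediators of mitochondrial apoptosis were likewise not called, with BAX at 0.02 and BBC3, the gene for PUMA, at -0.19. TP53I3, which encodes an oxidoreductase, narrowly missed the threshold (8.19 ± 1.74 against 10.7 ± 0.64 TPM, -0.37, adjusted p = 0.0516). In terms of library values, 6 of 30 members had every NOTCH1KO library below every WT library, beside 12.5% of all genes, and 0 had every library above, beside 11.9%. BTG2, an antiproliferative gene, was the one of these 6 that was not called (-0.42, adjusted p = 0.106).

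**Figure D2:**
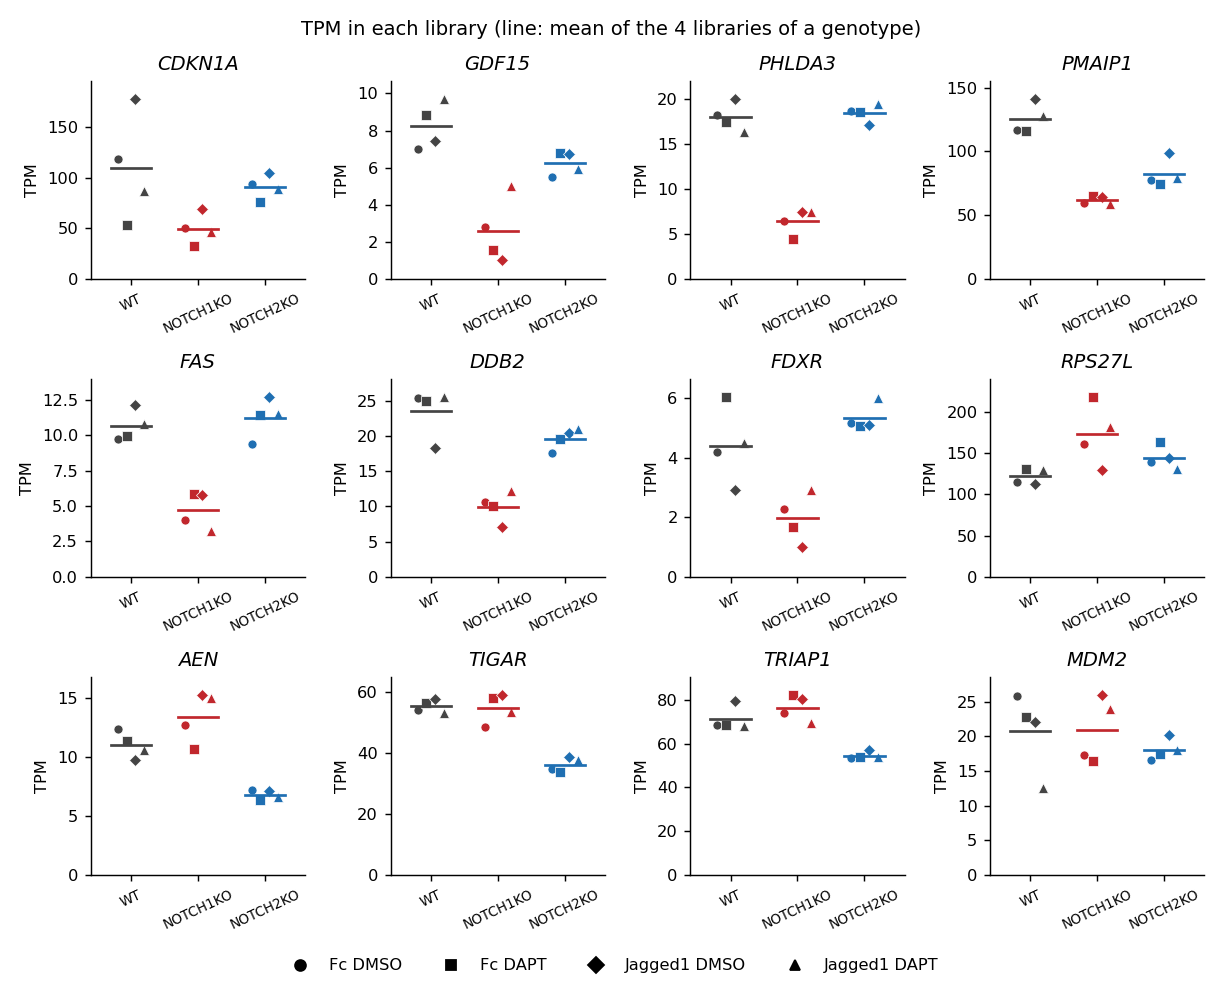
TPM of 12 members in each library by genotype, with symbols for the 4 cultures and a line for the mean of the 4 libraries. NOTCH1KO points lie below all WT points for GDF15, PHLDA3, PMAIP1, FAS and DDB2, NOTCH2KO points lie below all WT points for AEN, TIGAR and TRIAP1, and MDM2 points overlap.

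NOTCH2KO cells shared the same WT libraries as reference. Here 4 members were lower, 3 from the apoptosis group and 1 from metabolism, and none of the cell cycle, repair or death receptor genes was called. AEN, PMAIP1, TIGAR and TRIAP1 decreased by 0.37 to 0.62 on the log2 scale. These 4 of 30 members (13.3%) stand beside 7.35% of all genes called lower, while 0 of 30 were called higher, beside 12% of all genes (limma; 8 members had an unadjusted p under 0.05 in either direction, beside 33.1% of all genes). The median difference was -0.01 over the members and 0.06 over all genes.

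AEN (chromosome 15, 89164527 to 89175513), which encodes an apoptosis-enhancing nuclease, had 7.18, 6.36, 7.10 and 6.58 TPM in NOTCH2KO against 12.4, 11.4, 9.77 and 10.6 TPM in WT. NOTCH2KO libraries were all below WT, and the difference was -0.62 (SE 0.13, adjusted p = 0.0112). TIGAR (chromosome 12, 4430371 to 4462338), the fructose bisphosphatase gene that diverts glycolysis, had 34.6, 33.7, 38.7 and 37.8 TPM against 54.3, 56.5, 57.8 and 53.3 TPM. It differed by -0.60 (SE 0.08, adjusted p = 0.00177), with nonoverlapping libraries. Genes within 5 Mb of TIGAR had a median difference of -0.38 in this comparison. TIGAR remained called when the median level of its neighbors in each library was subtracted. That subtraction is not the same as removing the median difference of -0.38. Over all alternatives the smallest TIGAR difference was -0.39 and the highest adjusted p was 0.0249.

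PMAIP1 was the one member called lower in both knockout lines. In NOTCH2KO it had 77.2, 74.5, 98.4 and 79.2 TPM, all below the WT libraries (-0.61, SE 0.08, adjusted p = 0.00187), and its neighbors had a median of 0.24. TRIAP1 (chromosome 12, 120881764 to 120884215), a small inhibitor of apoptosis, was at 53.6, 53.8, 57.4 and 53.8 TPM against 68.8, 68.8, 79.5 and 68.0 TPM in WT (-0.37, SE 0.07, adjusted p = 0.00868). After local centring AEN was at -0.40 (adjusted p = 0.137) and TRIAP1 at -0.36 (adjusted p = 0.064), so that neither was called, while the size of the TRIAP1 difference was close to the -0.37 reported.

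GADD45A, a growth arrest and damage-inducible gene, had the largest difference in NOTCH2KO without being called. Its levels were 76.4, 118, 60.7 and 84.9 TPM in NOTCH2KO and 55.9, 74.0, 35.7 and 20.3 TPM in WT (0.97, SE 0.43, adjusted p = 0.152). CDKN1A had 93.8, 76.3, 105 and 89.2 TPM in NOTCH2KO, within the WT range (-0.14). MDM2 had 18.1 ± 1.55 TPM (-0.15). Of the 30 members 5 had every NOTCH2KO library below every WT library, beside 9.78% of all genes, and 2 had every library above, beside 15%. These were AEN, PMAIP1, TIGAR, TRIAP1 and GDF15 on the lower side and TNFRSF10B and RPS27L on the higher side, and GDF15, TNFRSF10B and RPS27L were not called (-0.35, 0.41 and 0.24).

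**Figure D3:**
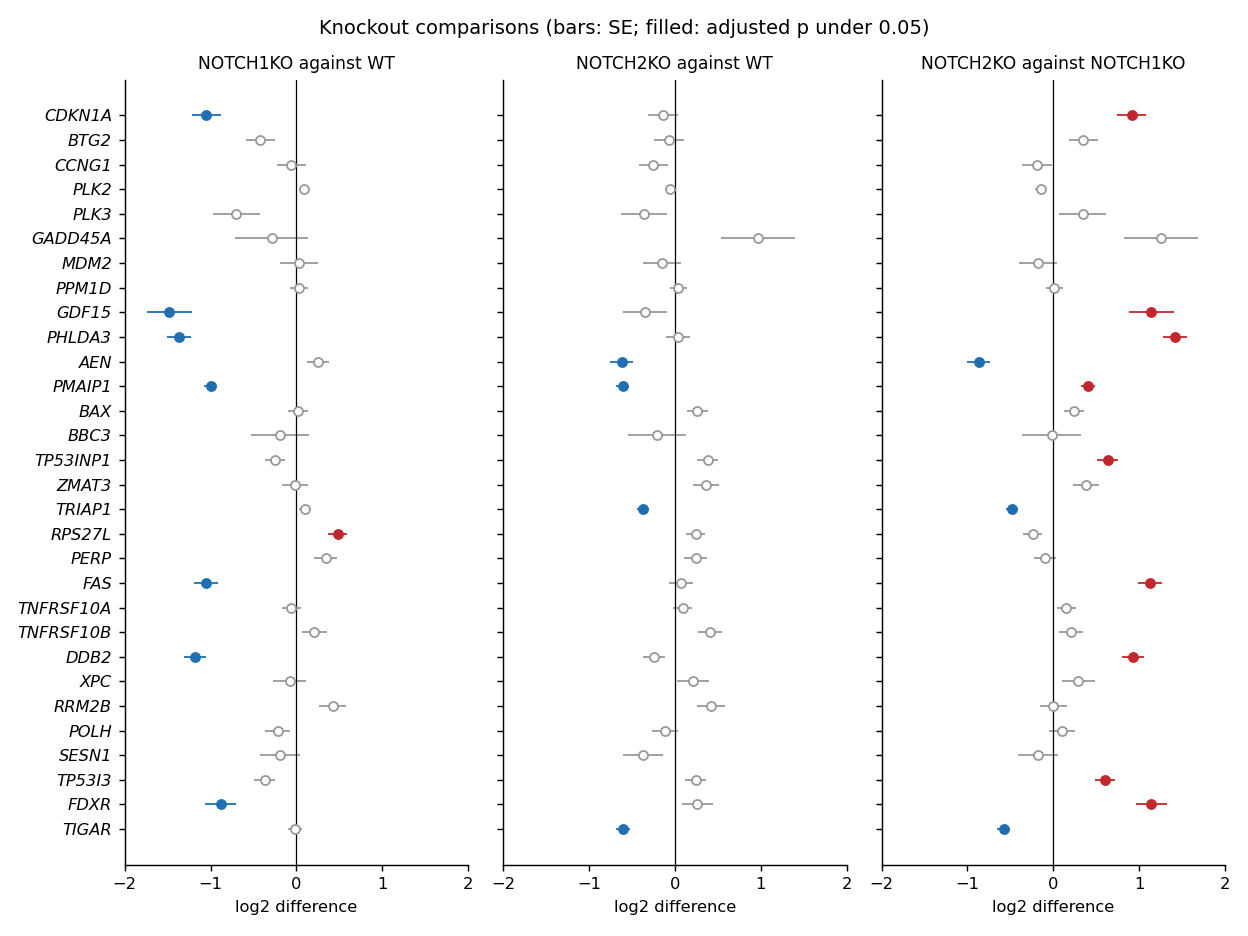
Differences in log2(TPM + 1) of the 30 members between genotypes, with SE as bars. Filled symbols are members called at an adjusted p under 0.05 (blue lower, red higher), 8 in NOTCH1KO against WT, 4 in NOTCH2KO against WT and 12 in NOTCH2KO against NOTCH1KO.

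The knockout lines were also compared directly. In NOTCH2KO relative to NOTCH1KO 9 members were higher (30%, beside 19.8% of all genes) and 3 were lower (10%, beside 11.9%). PHLDA3 (1.41), FDXR (1.14), GDF15 (1.14), FAS (1.12), DDB2 (0.93), CDKN1A (0.91) and PMAIP1 (0.40) were higher, which are the 7 genes that were lower in NOTCH1KO than in WT, and the NOTCH1KO libraries are shared by both comparisons. TP53INP1 (0.63), a stress-induced autophagy and apoptosis gene, and TP53I3 (0.60) were higher as well. AEN (-0.87), TIGAR (-0.58) and TRIAP1 (-0.48) were lower. Adjusted p-values of the 12 calls ranged from 0.000236 for PHLDA3 to 0.0119 for GDF15. CDKN1A was not called with coverage (adjusted p = 0.0939), and TP53I3 (0.32, adjusted p = 0.0826) and TP53INP1 (0.40, adjusted p = 0.0755) were not called after local centring.

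Copy number of the lines was not measured. The median difference of the genes within 5 Mb is given as a description of the surrounding region. For the members called in NOTCH1KO it ranged from -0.37 around FDXR to 0.27 around PHLDA3, so that PHLDA3, FAS and PMAIP1 were lower while their neighbors had medians above 0. For the members called in NOTCH2KO it ranged from -0.38 around TIGAR to 0.24 around PMAIP1. The part of the regions in these differences was not tested. Another gene with a mean of at least 1 TPM overlapped 11 of the 30 members, and the strand setting of the counting was not stated.

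**Figure D4:**
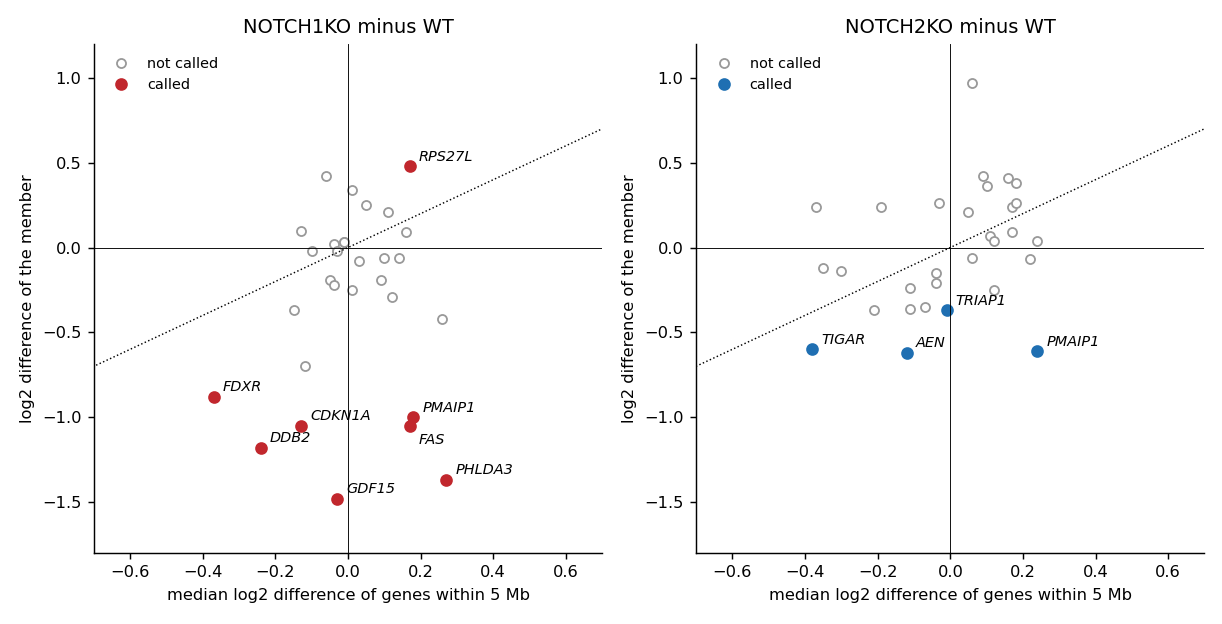
Difference of each member in log2(TPM + 1) against the median difference of genes within 5 Mb (mean TPM of at least 5), for NOTCH1KO minus WT and NOTCH2KO minus WT, with called members filled and named and a dotted line where both are equal. PHLDA3 stands at -1.37 with a neighbor median of 0.27, and TIGAR at -0.60 with -0.38.

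Jagged1 and DAPT were then examined for effects on the members. None was called in any of the 4 culture comparisons. All genes called were 0.0114% for Jagged1 against Fc in DMSO, 0.00568% for Jagged1 against Fc in DAPT, 0.0284% for DAPT on Jagged1 and 0.0341% for DAPT on Fc, so that few genes of any kind passed. An unadjusted p under 0.05 was seen for 5, 1, 5 and 3 of the 30 members, respectively, beside 10.8%, 4.74%, 11% and 6.14% of all genes (limma).

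CDKN1A was the member with the largest response to DAPT when both plates were averaged. In WT it was at 53.2 TPM with DAPT and 119 TPM without on Fc, and at 87.0 TPM and 178 TPM on Jagged1. In NOTCH1KO it was at 32.6 against 49.9 TPM and at 46.1 against 68.8 TPM, and in NOTCH2KO at 76.3 against 93.8 TPM and at 89.2 against 105 TPM. The level was therefore lower with DAPT in 6 of 6 matched pairs and higher on Jagged1 than on Fc in 6 of 6. These pairs use TPM, and the coverage to FPKM ratio of CDKN1A varied between libraries, as given above. The fitted differences were -0.68 (SE 0.20, adjusted p = 0.646) on Fc and -0.61 (SE 0.20, adjusted p = 0.324) on Jagged1. Averaged over both plates, a comparison added after the values were seen, the difference was -0.64 (SE 0.14, adjusted p = 0.118), beside 0.312% of all genes called and 0 members called.

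Across the 6 pairs 2 members were lower with DAPT throughout, beside 4% of all genes, and 2 were higher throughout, beside 3.49%. The former were CDKN1A and the repair gene XPC, and the latter BAX and TNFRSF10A, which were at most 0.29 and 0.44 log2 units higher in a pair. On Jagged1 relative to Fc 2 members were higher in all pairs, CDKN1A and BTG2 (beside 3.04% of all genes), and 1 was lower, GADD45A (beside 1.75%). Averaged over both drugs, the Jagged1 difference was 0.44 (SE 0.14, adjusted p = 0.427) for CDKN1A and -0.95 (SE 0.35, adjusted p = 0.471) for GADD45A. No member was called in that comparison (0.017% of all genes), and 6 had an unadjusted p under 0.05, beside 9.14% of all genes.

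Further members varied between plates in DMSO without being called. RRM2B, a ribonucleotide reductase subunit gene, was at 29.6, 38.9 and 54.3 TPM on Jagged1 with DMSO in WT, NOTCH1KO and NOTCH2KO. On Fc with DMSO it was at 22.2, 22.4 and 22.4 TPM. The difference was 0.80 (SE 0.18, adjusted p = 0.258), and its coverage to FPKM ratio varied 6.36-fold between libraries. TP53INP1 was at 4.41, 2.75 and 5.46 TPM on Jagged1 against 2.08, 1.93 and 3.47 TPM on Fc (0.57, SE 0.14, adjusted p = 0.268). GADD45A had 48.9, 56.7, 9.07 and 51.2 TPM in NOTCH1KO, where the library on Jagged1 with DMSO was the lowest of all 12.

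Whether responses differed between genotypes was tested with interaction terms, and no member was called. All genes called were 0.0114% for the DAPT response of NOTCH1KO against WT, 0% for that of NOTCH2KO, 0.0341% for the Jagged1 response of NOTCH1KO and 0.0397% for that of NOTCH2KO. Members with an unadjusted p under 0.05 numbered 0, 1, 5 and 1 of 30, beside 3.36%, 3.36%, 11.7% and 3.87% of all genes. For CDKN1A the DAPT response differed by 0.82 (SE 0.23, adjusted p = 1) between NOTCH2KO and WT, toward a smaller decrease in NOTCH2KO. By the TPM given above, the relative decrease of CDKN1A was also smaller in NOTCH1KO than in WT on both plates. For MDM2 the Jagged1 response differed by 1.06 (SE 0.26, adjusted p = 0.385) between NOTCH1KO and WT. MDM2 had 25.8, 22.8, 22.1 and 12.6 TPM in WT and 17.3, 16.4, 26 and 24 TPM in NOTCH1KO, so that it was lower on Jagged1 in WT and higher on Jagged1 in NOTCH1KO. Its coverage to FPKM ratio varied 4.16-fold between libraries.

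**Figure D5:**
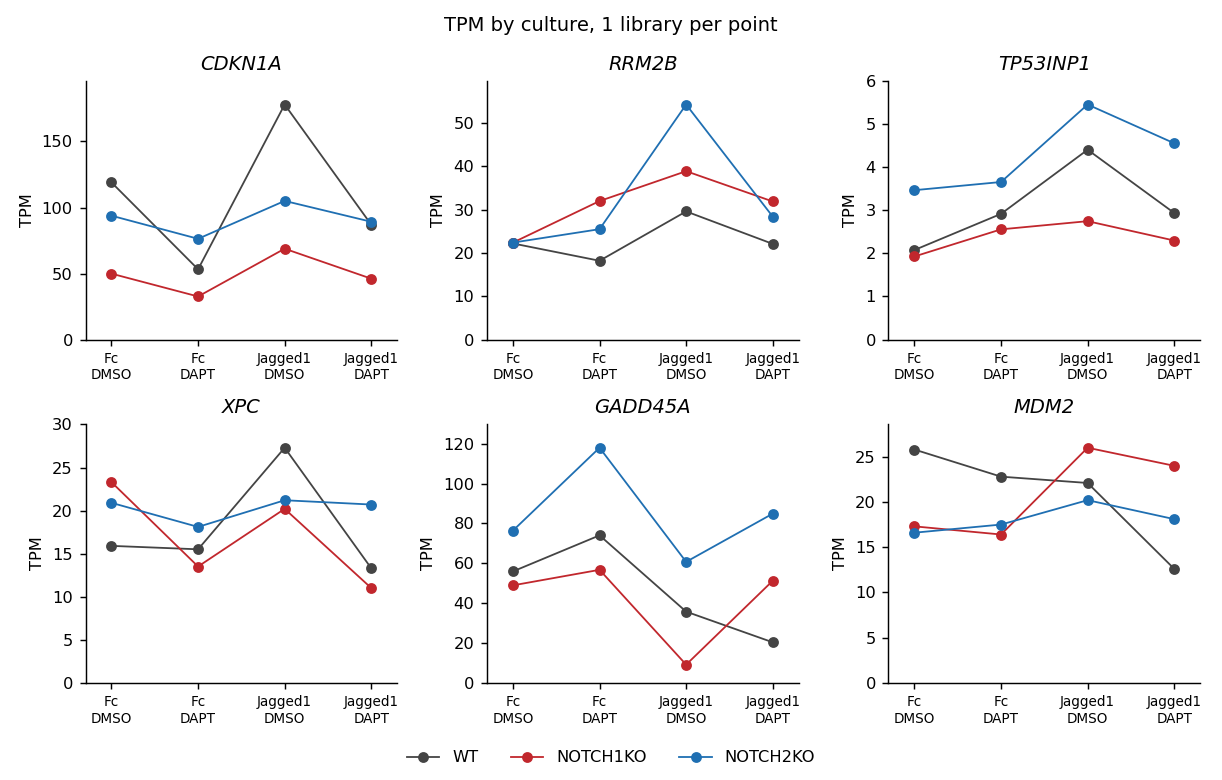
TPM of 6 members in the 4 cultures, 1 library per point, with a line for each genotype. CDKN1A is lower with DAPT than with DMSO on each plate in all genotypes, and GADD45A reaches 9.07 TPM in the NOTCH1KO library on Jagged1 with DMSO.

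Genes upstream of the members were listed separately, comprising the p53 family and its regulators. Of the 19 tested, 2 were higher in NOTCH1KO (10.5%, near the 10.7% of all genes) and 1 was lower (5.26%, below the 12.8% of all genes). They were the p53-binding protein gene TP53BP1 (0.76, adjusted p = 0.0193), the checkpoint kinase gene CHEK2 (0.40, adjusted p = 0.0115) and the p53 family member TP63 (1.16 ± 0.298 against 1.95 ± 0.281 TPM, -0.46, adjusted p = 0.0266).

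In NOTCH2KO 2 of the 19 were higher (10.5%, beside 12% of all genes) and 3 were lower (15.8%, beside 7.35%). Higher were TP53BP1 (0.73, adjusted p = 0.0255) and MDM4, an inhibitor of p53 (14.0 ± 1.07 against 8.77 ± 1.68 TPM, 0.63, adjusted p = 0.0409). Those lower included RPL11 (-0.34, adjusted p = 0.00515) and KAT5 (-0.27, adjusted p = 0.0394). MDM4 had 12.9 ± 3.86 TPM in NOTCH1KO and was not called there (0.48, adjusted p = 0.0854). TP73 was too low to be tested, with 0.572 ± 0.221 TPM in WT, 0.25 ± 0.189 TPM in NOTCH1KO and 1.48 ± 0.305 TPM in NOTCH2KO. p53 protein was not measured in these data.

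A second list held other reported p53 targets. Of 28 tested, 9 were lower (32.1%, beside 12.8% of all genes) and 2 higher (7.14%, beside 10.7%) in NOTCH1KO, with a median of -0.42. The largest changes were those of the stress sensor SESN2 (3.5 ± 0.8 against 15.0 ± 0.443 TPM, -1.84), the interferon-inducible gene TRIM22 (1.29 ± 0.334 against 6.52 ± 1.4 TPM, -1.7) and the tetraspanin gene CD82 (-1.30). In NOTCH2KO 5 were higher (17.9%, beside 12%) and 2 lower (7.14%, beside 7.35%), with a median of 0.03. FBXO22 (-1.10), FAM210B (0.90) and SESN2 (-0.86) changed most. For NOTCH2KO relative to NOTCH1KO 13 were higher (46.4%, beside 19.8%) and 2 lower (7.14%, beside 11.9%).

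Because several members are also known targets of the integrated stress response, a list of 18 stress genes was given beside them. It includes XBP1 and HSPA5, which are genes of the unfolded protein response. In NOTCH1KO 13 of the 18 were lower (72.2%, beside 12.8% of all genes) and 0 higher (beside 10.7%), with a median of -0.83, led by DDIT4 (-2.68), NUPR1 (-2.45) and CHAC1 (-2.31). In NOTCH2KO 9 were lower (50%, beside 7.35%) and 1 higher (5.56%, beside 12%), with a median of -0.40. The decreases were led by DDIT4 (-1.67), NUPR1 (-1.51) and PSAT1 (-1.36), and the higher gene was HSPA5 (0.85). DDIT3, ATF3, TRIB3 and XBP1 were called in neither line against WT. SESN2 is on this list and on the list of further p53 targets. GDF15 and PMAIP1 were named as examples, and members were not divided into targets and other genes of this response. The part of the integrated stress response in the levels of GDF15, PMAIP1 or other members was not tested.

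Cell cycle genes that p53 represses indirectly through p21 were the last list. In NOTCH1KO 5 of 24 were higher (20.8%, beside 10.7% of all genes) and 0 lower (beside 12.8%), with a median of 0.22. CCNA2 (112 ± 12.9 against 72.6 ± 6.11 TPM, 0.61), TOP2A (0.56) and MCM3 (0.48) changed most. In NOTCH2KO 1 was higher (4.17%, beside 12%) and 3 lower (12.5%, beside 7.35%), with a median of 0.01, and AURKB (-0.75), FOXM1 (-0.73) and E2F1 (0.60) changed most. For NOTCH2KO relative to NOTCH1KO 1 was higher (4.17%, beside 19.8%) and 7 were lower (29.2%, beside 11.9%). No link between CDKN1A and these genes was tested.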

How the data were processed

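Per the labels, poly-A RNA was made into stranded TruSeq libraries, sequenced as single 51-base reads and converted with bcl2fastq 2.17 and CASAVA, with GRCh37 as the genome. Not given in the sources used here are the aligner, quantifier, annotation release, strand setting and treatment of multimapping reads. TPM, FPKM and coverage (a signal of mean read depth per base) were deposited by the authors for each gene. TPM and FPKM were scaled for length and library size, and deposited coverage was not scaled for library size. Where coverage replaced TPM in a fit, it was first scaled to the same total in each library. Rows sharing a gene identifier were summed. Aligned reads per library were estimated from the read length and the highest value of coverage over FPKM among genes above 5 TPM.

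log2(TPM + 1) was fitted with limma 3.58.1 in R 4.3.3 (mean-variance trend) for the 17621 genes with mean TPM of at least 1. Genotype and culture entered as additive terms, with 6 residual degrees of freedom, and interaction models had 4. P-values were adjusted by Benjamini-Hochberg over all genes of each of 7 comparisons and 4 interactions. The fit was tested on simulated data.

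Members, gene lists and tests were chosen with earlier results of these data known. All members were to be named, and from further lists up to 3 called genes with the largest differences. Alternatives were a pseudocount of 0.1, no filter, mean TPM of at least 5, FPKM, coverage and median-centred libraries. Further ones were a model with 1 factor, each library left out, and local centring. Local centring subtracted the median level of genes within 5 Mb in each library. The averages over both plates and both drugs, and the MDM2, PLK2 and SESN1 promoters, were added after values were seen. Promoters came from RefSeq on GRCh38.p14, a build other than that of the tables. 1 item is not reported here.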

Additional observations from a re-analysis of the deposited data

How the results depend on the processing

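Of the alternatives, coverage in place of TPM moved a count of called members by more than 1.5 times, from 4 to 7 in NOTCH2KO against WT, where TNFRSF10B (0.49), TP53INP1 (0.41) and XPC (0.33) were called higher beside the same number of lower members. The cause was not tested. Counts of called members otherwise stayed within 1.5 times of those reported, ranging from 7 to 10 in NOTCH1KO against WT and from 10 to 15 in NOTCH2KO against NOTCH1KO, and staying at 0 for the cultures and interactions. Interactions were run only with a pseudocount of 0.1 and with coverage. No called member changed direction under the alternatives run, and FDXR and TP53INP1 could not be tested at a mean TPM of at least 5. Calls lost were those of CDKN1A with coverage, of FDXR, AEN, TRIAP1, TP53I3 and TP53INP1 with local centring, and of RPS27L without the WT library on Fc with DAPT. Local centring also added calls against WT. PERP (0.68, adjusted p = 0.0171) and RPS27L (0.46, adjusted p = 0.0113) were called higher in NOTCH2KO, and PLK2 (0.34, adjusted p = 0.0236) in NOTCH1KO. Other alternatives, among them single libraries left out, added further calls. Libraries of the same culture were paired across genotypes by the culture term of the reported fit, and the model with 1 factor drops that pairing and gave the same counts of 8, 4 and 12 called members. Replicate numbers gave no further pairing, since every library was replicate 1. Replicate cultures and clones were lacking, and the depth limits members near 1 TPM such as BBC3.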
